A study of Mus musculus with 6 samples.

Results

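Interferon-stimulated genes were followed through the open chromatin of cultured bone marrow macrophages from old and young mice. The set holds 30 named genes of the 21633 genes that were given a locus, each locus being the RefSeq span of the gene plus 10 kb on each side. It comprises 4 regulators (Irf1, Irf7, Irf9 and Stat2) and 5 sensors (Ifi203, Ifi204, Ifi205, Ifih1 and Zbp1). A further 4 are listed as modifiers: Isg15, Usp18 and Trim25, which act in protein modification and its control, and Ifi35. The rest are 14 listed as effectors, from antiviral families (the Ifit, Oas, Oasl and Mx genes, Rsad2, Cmpk2, Ifi44 and Bst2), and 3 guanylate-binding GTPases (Gbp2, Gbp3 and Gbp5). All 30 were chosen by name, with earlier results of these data known. The macrophages were adherent marrow cells of WT BALB/c mice, expanded in alpha-MEM with serum and typed as F4/80+CD169+. Old mice were over 78 weeks of age and young mice 3 weeks, with 3 libraries of each. Each library came from 50000 cells by Omni-ATAC, a form of ATAC-seq in which a transposase inserts adapters into accessible DNA, and each has its own deposited list of peaks. Pooling of animals is not given in the labels, nor is any stimulus.

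Interferons bind cell surface receptors whose kinases phosphorylate STAT proteins. Type I and III interferons assemble a complex with STAT2 and IRF9 that binds the interferon-stimulated response element (ISRE), a sequence built on repeated GAAA, while type II interferon acts mainly through the gamma-activated site (GAS). Macrophages hold many target genes ready for induction, and low tonic interferon signalling is known to keep some of them expressed at rest. Accessible chromatin at such a gene is therefore not a measure of its transcript, which was not analysed here.

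The promoters show where the ISRE lies in genes of each kind. RefSeq gives windows of 250 bases before and 50 after a transcription start site for 24 of the 30 genes, 29 windows in all (build GRCm38.p6, whose chromosomes are those of mm10). The following 6 windows were picked for what they hold, from Isg15 with overlapping ISRE matches to Ifi203, whose window lacked a peak in some libraries. Each is written 5′ to 3′ along the strand of the gene, and capitals mark every match to the ISRE core, which is GAAA, any 2 bases and GAAA again, or TTTC, 2 bases and TTTC when it lies on the opposite strand. Isg15 lies at chr4:156200769-156201068 on the minus strand, Ifit1 at chr19:34640639-34640938 on the plus strand, and Oas1a at chr5:120907476-120907775 on the minus strand. Gbp2 lies at chr3:142620413-142620712 and Stat2 at chr10:128270248-128270547, both on the plus strand, and the second Ifi203 window at chr1:173942443-173942742 on the minus strand.
Isg15: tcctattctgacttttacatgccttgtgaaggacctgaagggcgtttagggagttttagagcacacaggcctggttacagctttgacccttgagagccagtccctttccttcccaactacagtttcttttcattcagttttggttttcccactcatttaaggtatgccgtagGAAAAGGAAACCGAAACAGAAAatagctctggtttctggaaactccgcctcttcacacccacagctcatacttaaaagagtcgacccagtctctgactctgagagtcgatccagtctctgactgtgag
Ifit1: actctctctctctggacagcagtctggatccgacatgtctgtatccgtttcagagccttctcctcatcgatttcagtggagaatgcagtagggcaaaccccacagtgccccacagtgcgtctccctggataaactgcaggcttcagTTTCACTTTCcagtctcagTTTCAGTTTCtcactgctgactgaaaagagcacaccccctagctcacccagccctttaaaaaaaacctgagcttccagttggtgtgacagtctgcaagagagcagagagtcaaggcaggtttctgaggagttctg
Oas1a: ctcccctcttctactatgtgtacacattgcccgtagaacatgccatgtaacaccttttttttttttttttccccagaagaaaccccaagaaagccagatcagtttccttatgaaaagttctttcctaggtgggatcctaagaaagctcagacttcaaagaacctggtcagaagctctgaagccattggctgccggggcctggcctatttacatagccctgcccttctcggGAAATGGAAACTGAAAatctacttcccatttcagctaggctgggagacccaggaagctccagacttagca
Gbp2: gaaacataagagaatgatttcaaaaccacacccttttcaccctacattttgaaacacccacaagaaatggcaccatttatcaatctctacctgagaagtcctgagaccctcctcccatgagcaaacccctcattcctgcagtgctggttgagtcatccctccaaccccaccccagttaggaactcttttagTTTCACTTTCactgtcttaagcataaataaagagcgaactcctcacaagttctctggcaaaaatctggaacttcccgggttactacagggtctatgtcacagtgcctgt
Stat2: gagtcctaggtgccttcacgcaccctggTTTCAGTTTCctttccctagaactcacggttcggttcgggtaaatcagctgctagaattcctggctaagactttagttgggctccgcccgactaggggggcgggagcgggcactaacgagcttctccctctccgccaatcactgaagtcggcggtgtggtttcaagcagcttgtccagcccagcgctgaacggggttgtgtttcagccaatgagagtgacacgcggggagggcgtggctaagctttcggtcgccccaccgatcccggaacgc
Ifi203: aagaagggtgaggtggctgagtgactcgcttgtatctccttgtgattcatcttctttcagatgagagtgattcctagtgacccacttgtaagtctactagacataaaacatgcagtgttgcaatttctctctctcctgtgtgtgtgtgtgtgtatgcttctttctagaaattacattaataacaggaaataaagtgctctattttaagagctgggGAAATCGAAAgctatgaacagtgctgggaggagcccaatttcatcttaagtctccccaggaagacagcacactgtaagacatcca

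In Isg15, which encodes a ubiquitin-like protein joined to other proteins, 3 overlapping cores (GAAAAGGAAA, GAAACCGAAA and GAAACAGAAA) began 78, 72 and 66 bases before the start site. Ifit1, whose protein binds viral RNA that lacks the cap methylation of host mRNA, had TTTCACTTTC at 104 and TTTCAGTTTC at 85 bases before the start. Oas1a, one of the synthetases that make 2′-5′ oligoadenylate to activate RNase L, had 2 overlapping cores at 20 and 14 bases before it. The single core of Gbp2 began 59 bases before the start, and that of Ifi203 35 bases before it. In Stat2, which has a CpG-rich window of 22 CpG dinucleotides, the core began 222 bases upstream. The other genes with a core were Ifi205, Ifih1, Gbp3, Gbp5, Oas3, Bst2, Rsad2 and Ifit3, and in Ifih1 it lay 33 bases after the start site.

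The ISRE core was present in 14 of the 29 windows (48.3%), and in 31 of 86 windows (36.0%) of the other interferon pathway genes, against 711 of 21045 windows (3.38%) of protein-coding genes. Those pathway genes include ligands, receptors and kinases. Their further stimulated genes alone had the core in 23 of 47 windows (48.9%), a share close to that of the members. By gene, 14 of 24 members (58.3%) had it, against 3.98% of 17274 protein-coding genes, and over all 32619 RefSeq windows the share was 3.46%. The GAS core TTCNNNGAA occurred in 6 of the 29 windows (20.7%), against 7.76% of protein-coding windows. In Bst2 a GAS match overlapped an ISRE match. TGANTCA, a loose form of the AP-1 motif TGA(G/C)TCA with any base at the centre, occurred in 7 windows (24.1%), against 7.04% of protein-coding windows. In the windows of Ifi203 and Ifit3 it matched only as TGATTCA, and both overlapping Ifi203 windows were counted for the same match. GAGGAAGT, a motif of the macrophage factor PU.1, occurred in none of the 29, against 3.15% of protein-coding windows. In the further stimulated genes the shares were 12.8% for TGANTCA and 14.9% for GAGGAAGT. All motifs were read on both strands, and these shares are descriptions of sequence, not of binding.

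A peak lay over the promoter window in all 6 libraries at 26 of the 29 windows (89.7%), against 57.8% of the protein-coding windows and 44.5% of all windows. The other interferon pathway genes had one at 65 of 86 windows (75.6%), and their further stimulated genes at 37 of 47 (78.7%). The member windows held a median of 6 CpG dinucleotides, against 7 over all windows. Among windows with 0 to 4 CpG dinucleotides, 10 of 13 of the members (76.9%) had a peak in all 6 libraries, against 10.7% of 5838 protein-coding windows. With 5 to 14 CpG, all 12 member windows had one, against 50.6%, and with 15 or more all 4 had one, against 89.3%. High shares at low CpG count were not particular to the members. The further stimulated genes had such a peak at 17 of 26 windows (65.4%) with 0 to 4 CpG and 14 of 15 (93.3%) with 5 to 14. Of the member windows with an ISRE core, 13 of 14 had a peak in all 6 libraries. Among the 711 protein-coding windows with a core the share was 50.1%, and among the 23 of the further stimulated genes it was 78.3%. Windows with a core were not split by CpG count. These shares come from the presence of peaks in both ages and carry no test.

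**Figure D1:**
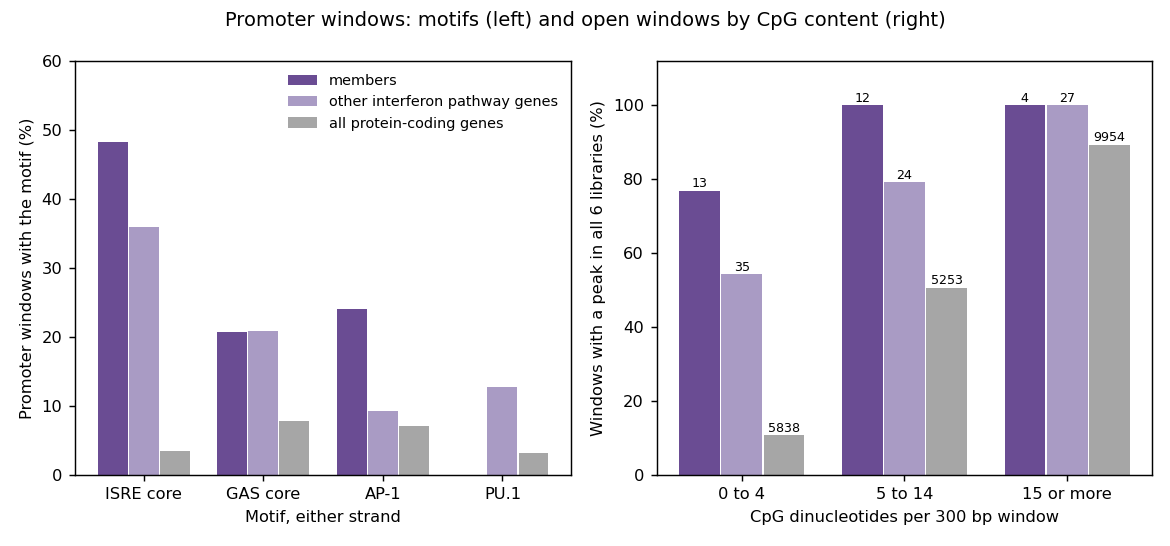
Share of 300 bp promoter windows with each motif (left, %) and share with a peak in all 6 libraries by CpG count (right, %), for members, other interferon pathway genes and all protein-coding genes; numbers over the right bars are windows. The ISRE core is in 48.3% of member windows and 3.38% of protein-coding windows. The PU.1 motif is in 0 of 29 member windows and 3.15% of protein-coding windows.

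The 3 windows without a peak in all libraries belonged to Oasl2 and Ifi203. At Oasl2, an RNA-binding relative of the Oas enzymes, only the library old 3 had a peak there, over 99 bases. At the Ifi203 window printed above, the peak covered 73, 0 and 0 bases in the old libraries, against 85, 73 and 75 in the young ones. Its neighbouring start site window, which overlaps it, was covered over 104, 0 and 0 bases in the old libraries and 80, 127 and 144 in the young ones. The fold enrichment of the peak at the printed window, a value of the authors' peak caller, was 4.00 in old 1, and 4.53, 3.39 and 4.47 in the young libraries. By −log10 q this peak stood in the top 45.7% of the list of old 1 and in the top 34.9%, 59.1% and 36.4% of the young lists. Ifi203 encodes a DNA-binding protein of the p200 family, and its relatives Ifi204 and Ifi205 had peaks at a gene end in every library.

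Counting both ends of a gene, 29 of the 30 members (96.7%) had a peak within 1 kb of an end in all 6 libraries, against 14271 of 21633 genes (66.0%), Ifi203 being the exception. The strength of those peaks varied widely between members. The strongest peak belonging to a regulator spanned the Stat2 start (chr10:128270090-128271144), within 1 kb of an end of Apof. By −log10 q it stood in the top 0.556%, 0.673% and 0.663% of the old lists and the top 0.346%, 0.609% and 0.314% of the young lists. It was thus among the strongest peaks of every library. At Irf1, an interferon-induced activator, the strongest peak lay away from the gene (chr11:53762765-53764339), in the top 0.712%, 1.01% and 0.897% of the old lists and the top 1.84%, 0.978% and 0.959% of the young lists.

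At several other loci the strongest peak sat at the end of a neighbour: Mvb12a in the Bst2 locus, Rpl27 in the Ifi35 locus, Agrn in the Isg15 locus and Ifi211 in the Ifi203 locus. In the Trim25 locus, Trim25 being a ubiquitin ligase that acts with the RNA sensor RIG-I, it was distal (chr11:89024032-89024941) and within the top 0.699% of each list. Ifi44 stood at the other extreme. Its strongest shared region (chr3:151749829-151750087), at a gene end, ranked in the top 26.6%, 32.2% and 51.0% of the old lists and the top 34.0%, 43.5% and 28.7% of the young lists. Ifit3, a partner of Ifit1, came next with places of 19.9%, 32.6% and 23.2% in the old lists and 22.5%, 17.9% and 22.8% in the young ones. Because the lists differ in length, these ranks cannot be compared between the ages.

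**Figure D2:**
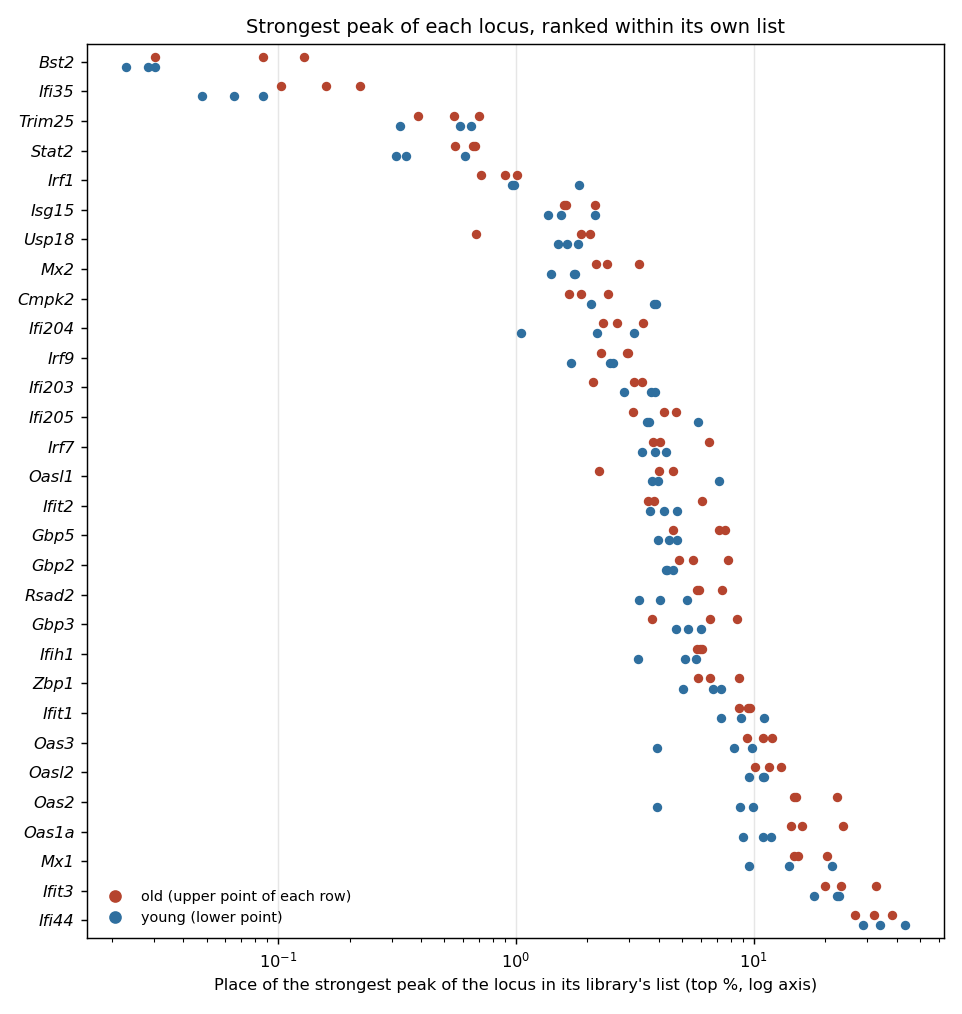
Place of the strongest peak of each locus in the list of its library, as the top % by −log10 q (log axis); 3 old libraries above, 3 young below in each row. Bst2, Ifi35, Trim25 and Stat2 lie in the top 1% of every list, while Ifi44 lies outside the top 25% of each.

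For the comparison of ages, the length covered by peaks was summed per gene and library over 3 windows: the locus, the parts within 1 kb of a gene end, and the rest of the locus. Values were scaled so that every library had the same total, and all covered lengths below are such scaled base pairs. The question is whether these genes are more or less open in macrophages of old marrow than of young marrow. The labels do not say whether the libraries of an age came from separate mice, and the p-values reflect library-to-library spread, which may be technical. In bulk chromatin, fewer cells with an open locus and a less open locus per cell cannot be told apart. The deposited lists held 245667, 227978 and 215947 peaks in old and 243924, 223018 and 254410 in young, and covered 63.8, 48.2 and 49.0 Mb in old and 62.2, 52.4 and 66.1 Mb in young. Read depth is unknown, and a shorter list or a missing peak may follow from fewer reads, which was not tested.

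No member was wider or narrower in old macrophages in any of the 3 windows by limma with Benjamini-Hochberg adjustment over all genes (adjusted p under 0.05). At the locus, 30 members were tested and 0 were called, where 0.389% of 16945 genes were wider and 0.578% narrower, and 2 members (Ifi44 and Oas3) had an unadjusted p under 0.05, against 12.8% of all genes. Their log2 changes, old minus young, ran between -0.26 and 0.56, with 14 of 30 above 0, against 52.1% of all genes, and a median of -0.01, against 0.01 over all genes. At gene ends, 29 members were tested, 0 were called (0.0% of 13838 genes in either direction), 3 had an unadjusted p under 0.05 (8.79% of genes) and 14 had a change above 0 (53.6%). Elsewhere in the locus, 26 members were tested, 0 were called (0.47% of 15099 genes wider and 0.682% narrower), 3 had an unadjusted p under 0.05 (13.7% of genes) and 13 had a change above 0 (51.9%). The smallest adjusted p of a member was 0.31 at the locus, 0.453 at gene ends and 0.138 elsewhere.

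The old and young libraries did not overlap at some loci. All 3 old libraries were higher at the locus of Ifi44, Irf7 and Ifi35, 3 of 30 members, against 8.63% of genes tested, and lower at 0 members, against 8.36% of genes. At gene ends the old libraries were the higher ones at 3 of 29 members (Mx2, Ifit2 and Irf7; 6.79% of genes) and below at 0 (6.61%). Elsewhere they lay above at 3 of 26 (Oas2, Ifi35 and Irf7; 8.95%) and below at 2 (Cmpk2 and Ifit1; 9.0%). These shares are near those of all genes.

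**Figure D3:**
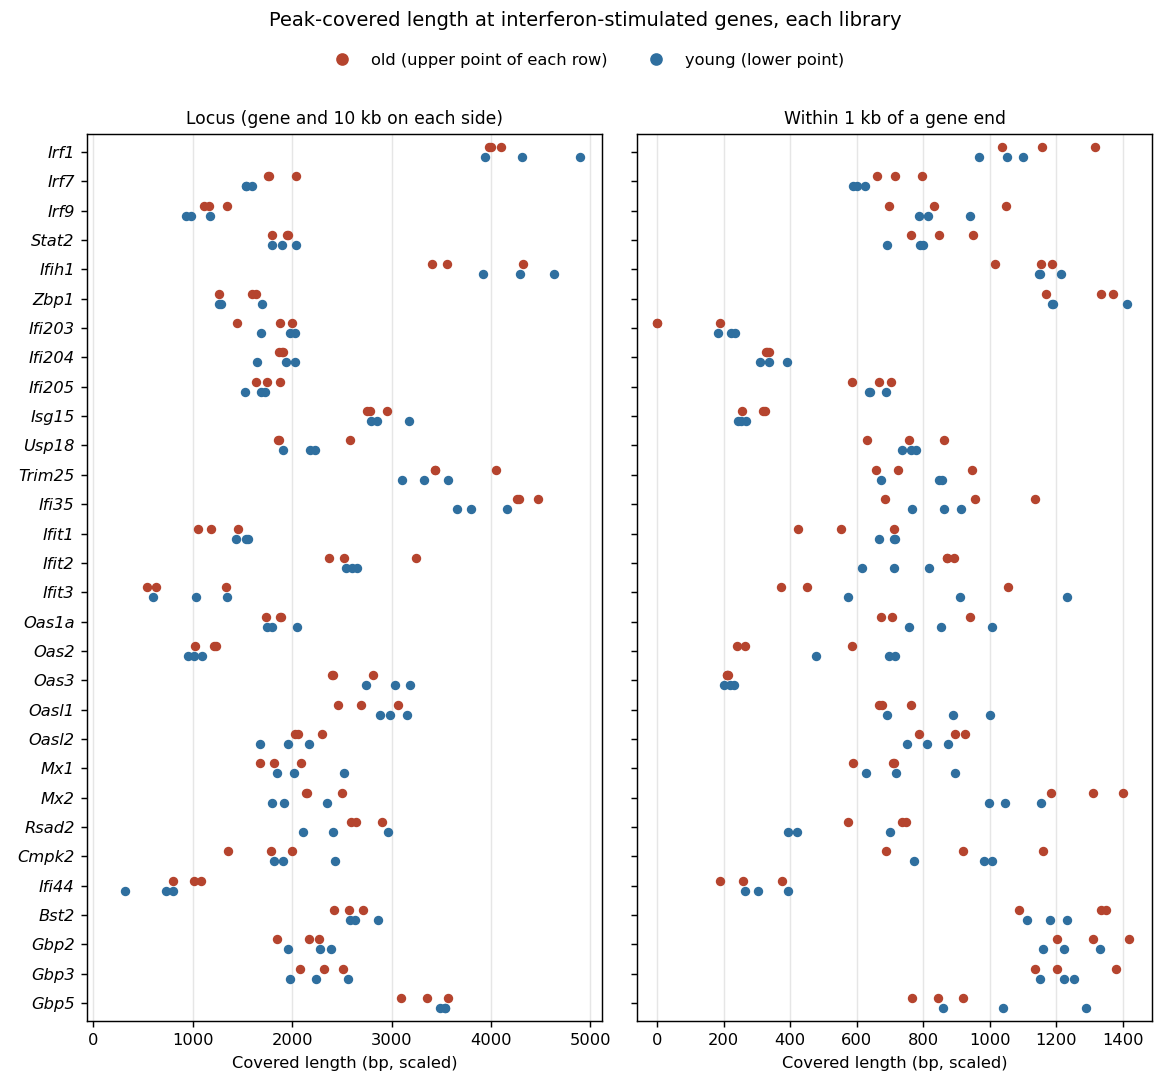
Scaled covered length (bp) of the 30 members in each library, at the locus (left) and within 1 kb of a gene end (right); old libraries are the upper points of a row and young libraries the lower ones. At the locus old and young overlap for all members but Ifi44, Irf7 and Ifi35, and the Irf1 locus is the widest.

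Among the regulators, Irf7, which drives the amplifying phase of interferon production, stood at 1764, 2040 and 1760 bp in old libraries, against 1538, 1598 and 1537 bp in young ones. Its log2 change was 0.22 (SE 0.11, limma adjusted p = 0.443). The groups did not overlap at its locus, nor at its gene ends, where it covered 662, 797 and 714 bp in old and 626, 590 and 601 bp in young. Irf9, the DNA-binding subunit of the ISRE complex, covered 1161, 1110 and 1345 bp in old and 935, 981 and 1171 bp in young, a log2 change of 0.19 (SE 0.15, adjusted p = 0.642). Here old and young overlapped at the locus. In the part of the Irf9 locus away from its ends, which fell below the filter on low values, the old libraries had 346, 401 and 274 bp, all above the 157, 132 and 263 bp of the young ones, a change of 0.50 (SE 0.17) in a fit without the filter, with an adjusted p of 0.445.

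Stat2, the partner of IRF9, gave the flattest values of the regulators. It covered 1955, 1800 and 1945 bp in old libraries and 1894, 2043 and 1800 bp in young ones, a log2 change of -0.01 (SE 0.11, adjusted p = 0.989). The Irf1 locus, the widest of the set with a mean of 4204 bp, covered 4000, 4103 and 3982 bp in old and 4311, 4893 and 3936 bp in young. Its change was -0.11 (SE 0.09, adjusted p = 0.666), with the young library 2 the highest and the groups overlapping.

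Of the sensors, Ifih1 (MDA5, which senses long double-stranded RNA) covered 4323, 3408 and 3556 bp in old and 4635, 3922 and 4291 bp in young, a log2 change of -0.18 (SE 0.10, adjusted p = 0.46). The old and young ranges overlapped through old 1. Away from its gene ends Ifih1 covered 3140, 2387 and 2392 bp in old and 3487, 2757 and 3086 bp in young (change -0.23, SE 0.12, adjusted p = 0.434). The DNA sensors of the p200 family and Zbp1, which senses Z-form nucleic acid, had locus means between 1458 and 1879 bp and overlapping groups. At the gene ends of Ifi203 the old libraries had 190, 0 and 0 bp and the young ones 182, 234 and 221 bp, below the filter, with a change of -0.72 (SE 0.31) and an adjusted p of 0.972 in the fit without it.

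Among the genes listed as modifiers, Ifi35, a binding partner of the regulator Nmi, covered 4287, 4264 and 4477 bp in old and 3801, 4164 and 3662 bp in young. The groups did not overlap, and the log2 change was 0.16 (SE 0.08, adjusted p = 0.446). Much of this locus lies over neighbouring genes, since Rnd2, Rpl27 and Vat1 also fall within it. Isg15 covered 2832 ± 109 bp in old and 2940 ± 203 bp in young (SD, n = 3 each), and Usp18, the protease that removes ISG15 from proteins, 2101 ± 416 bp in old and 2105 ± 172 bp in young. Trim25 covered 3640 ± 351 bp in old and 3333 ± 230 bp in young. In all 3 the groups overlapped. The Isg15 gene, of 1395 bp, lies wholly within 1 kb of its ends, where the mean cover was 276.9 bp. Elsewhere in its locus, outside the gene, the mean was 2611 bp, and Agrn and Perm1 also fall within that locus.

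The largest locus change of the set was at Ifi44, a cytoplasmic antiviral protein gene with the narrowest cover, a mean of 790.5 bp. It covered 1079, 801 and 1009 bp in old libraries and 734, 320 and 799 bp in young ones. The old values lay just above the young ones, and the log2 change of 0.56 (SE 0.23) had an adjusted p of 0.31. The difference sat away from the gene ends, where old libraries had 709, 611 and 752 bp and young ones 343, 44 and 502 bp. At the gene ends themselves the values overlapped, with 374, 190 and 257 bp in old and 394, 264 and 302 bp in young. No peak of this locus was among the 50000 strongest of any library.

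In the Ifit cluster, Ifit1 covered 1460, 1048 and 1188 bp in old and 1536, 1558 and 1432 bp in young, a log2 change of -0.26 (SE 0.14, adjusted p = 0.441). Old 1 overlapped the young libraries and the other two old libraries lay below them. Ifit2, a pro-apoptotic member, changed by 0.24 at its gene ends (SE 0.11, adjusted p = 0.568), with 872, 892 and 873 bp in old, all above the 617, 816 and 713 bp in young. Ifit3 differed widely between libraries of the same age, at 1336, 633 and 538 bp in old and 1346, 602 and 1034 bp in young. Taken as a union, the 3 Ifit loci covered 4086 ± 798 bp in old and 4469 ± 172 bp in young. The loci of Ifit2 and Ifit3 overlap by 13416 bp, so they share peaks.

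In the Oas cluster, Oas3 covered 2818, 2397 and 2415 bp in old and 3035, 3182 and 2743 bp in young, a log2 change of -0.22 (SE 0.10, unadjusted p = 0.0381, adjusted p = 0.349). The groups overlapped through old 1. Oas2 moved in opposite directions in its 2 windows. At gene ends it covered 587, 239 and 264 bp in old and 716, 477 and 696 bp in young (change -0.60, SE 0.23, adjusted p = 0.472). Elsewhere in its locus it covered 631, 991 and 762 bp in old, all above the 249, 524 and 419 bp in young (change 0.75, SE 0.23, adjusted p = 0.138). The ends of the 3 Oas genes together covered 1502, 1125 and 1414 bp in old, below the 1941, 1562 and 1655 bp in young, while the whole Oas loci covered 4947 ± 228 bp in old and 5078 ± 299 bp in young. The Oas2 and Oas3 loci overlap by 16789 bp.

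**Figure D4:**
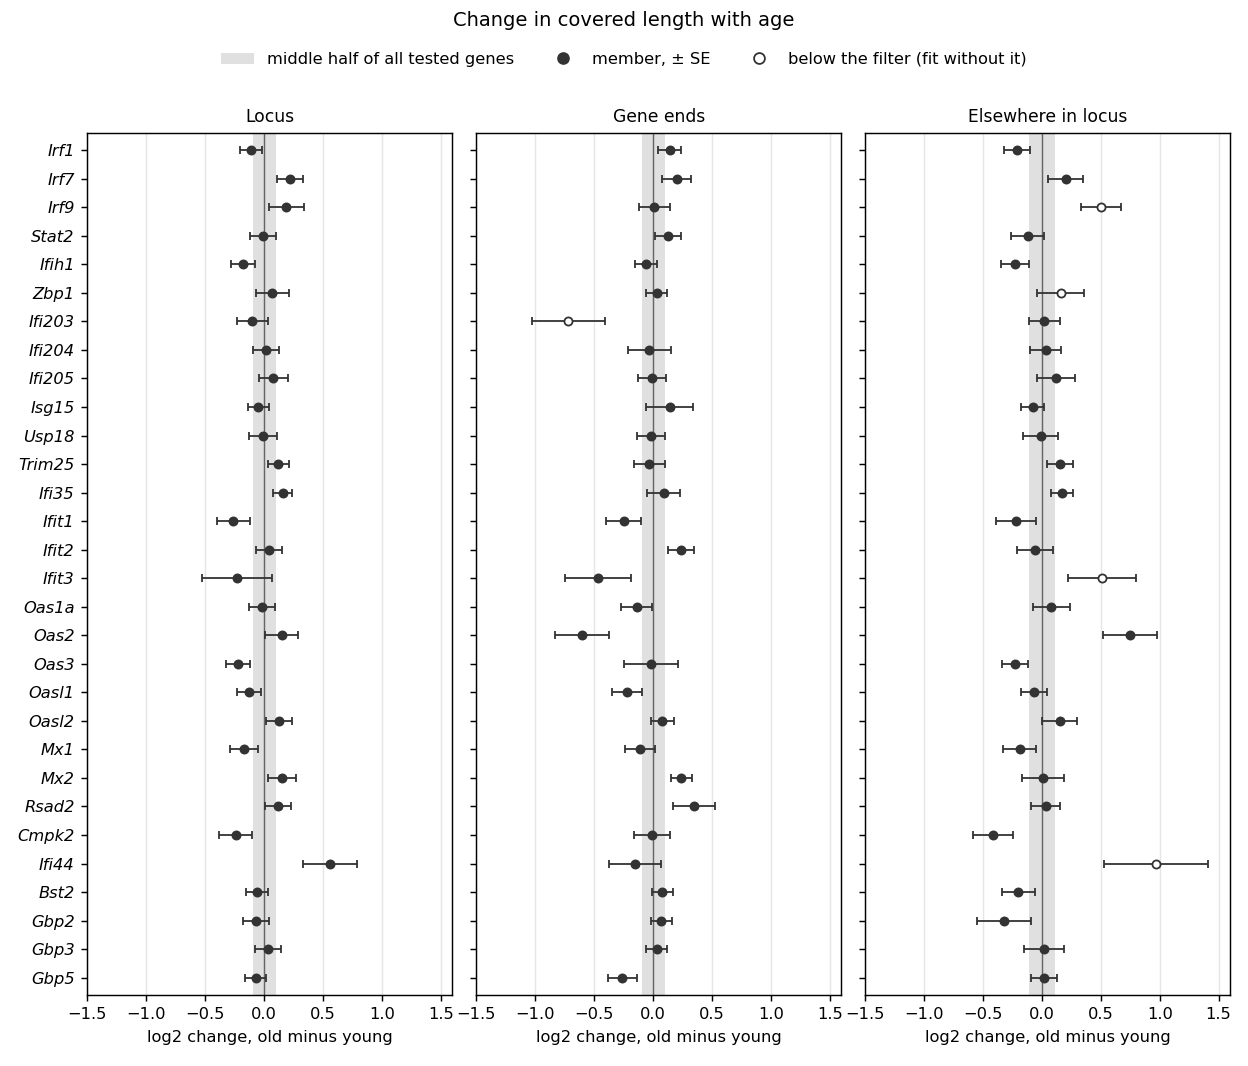
Log2 change in covered length, old minus young, with its SE for each member at the locus, at gene ends and elsewhere in the locus; open points come from the fit without the filter, and the grey band spans the quartiles of all tested genes. Most points lie near the band, and Oas2 lies at -0.60 at its ends and at 0.75 elsewhere.

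Mx1 and Mx2 belong to a family of dynamin-like GTPases that block viral replication, but both are listed as transcribed pseudogenes in the RefSeq gene table of the mouse reference strain. Whether either makes a working protein in these BALB/c mice is not given in the sources used here. Mx2 covered 1400, 1185 and 1312 bp at its gene ends in old libraries and 1045, 999 and 1155 bp in young ones. The old values all lay above the young ones, and the change of 0.24 (SE 0.09) had the smallest gene-end p of the set (unadjusted p = 0.0199, adjusted p = 0.453). Mx1 covered 1813, 1672 and 2089 bp at its locus in old and 2020, 2522 and 1847 bp in young (change -0.17, SE 0.12, adjusted p = 0.618), and the groups overlapped.

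Rsad2 (viperin) makes a chain-terminating nucleotide from CTP, and its neighbour Cmpk2 is a nucleotide kinase. Cmpk2 covered 1999, 1355 and 1791 bp in old and 1820, 2431 and 1906 bp in young (change -0.24, SE 0.14, adjusted p = 0.51). Away from the ends of Cmpk2 the old libraries had 861, 657 and 855 bp, all below the 1052, 1422 and 928 bp of the young ones, a change of -0.42 (SE 0.17, unadjusted p = 0.0285, adjusted p = 0.29). Rsad2 covered 2713 ± 168 bp in old and 2496 ± 432 bp in young, and its gene ends changed by 0.35 (SE 0.18, adjusted p = 0.608). Bst2 (tetherin), which holds budding virus at the membrane, covered 2569 ± 144 bp in old and 2692 ± 148 bp in young. Oas1a, Oasl1 and Oasl2 also had overlapping groups, with changes between -0.13 and 0.13 at the locus.

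The Gbp genes encode GTPases that coat pathogen vacuoles. Gbp5 covered 921, 846 and 766 bp at its gene ends in old libraries and 1290, 859 and 1041 bp in young ones, a change of -0.26 (SE 0.12, adjusted p = 0.577) in which the groups overlapped through old 1 and young 2. At their loci Gbp2, Gbp3 and Gbp5 changed by -0.07, 0.03 and -0.07. Their union covered 7741 ± 215 bp in old and 7991 ± 456 bp in young, and the union of Ifi203, Ifi204 and Ifi205 covered 5418 ± 387 bp in old and 5415 ± 277 bp in young. Copies within the Gbp, Oas, Ifit and Ifi200 families are similar in sequence. How reads with several matches were placed is not given in the sources used here, and the cells were BALB/c while the build is that of another strain. Part of the values at these families may thus belong to a copy, which was not tested.

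Peaks of the 6 lists were merged into 378 regions over the member loci, of which 136 (36.0%) had a peak in all 6 libraries, against 31.2% of 281364 regions over the loci of all genes. Within 1 kb of a member's ends 40 of 78 regions (51.3%) did, and elsewhere 96 of 300 (32.0%). Regions with a peak in all 3 old libraries and none of the young ones numbered 4 (1.06%, against 0.469% of regions of all loci), and those with the reverse pattern 6 (1.59%, against 1.35%). These were few and weak, with fold enrichments of the authors' caller between 2.62 and 3.87.

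The 4 regions with old peaks only lay just beyond an end of Ifit2 (chr19:34577107-34577385) and within the spans of Oas2 (chr5:120741041-120741249), Rsad2 (chr12:26452230-26452384) and Usp18 (chr6:121261355-121261637). The 6 regions with young peaks only lay near ends of Oasl1 (chr5:114922570-114922681) and Ifi205 (chr1:174031414-174031525), within Stat2 (chr10:128283790-128284033) and Ifih1 (chr2:62629739-62629811), beyond Gbp2 (chr3:142645483-142645758), and between Rsad2 and Cmpk2 (chr12:26464460-26464743). Before scaling, the last had the widest peaks, of 269, 284 and 269 bp in the young libraries, and none in the old ones. Its peaks ranked in the top 39.7%, 31.2% and 56.7% of the young lists, so it was no strong peak in any of them. A stronger region between the same genes (chr12:26460017-26460576) had a peak in all 6 libraries, in the top 5.80%, 7.38% and 5.90% of the old lists and the top 3.30%, 5.25% and 4.02% of the young lists. A peak missing from a list means only that none was called.

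**Figure D5:**
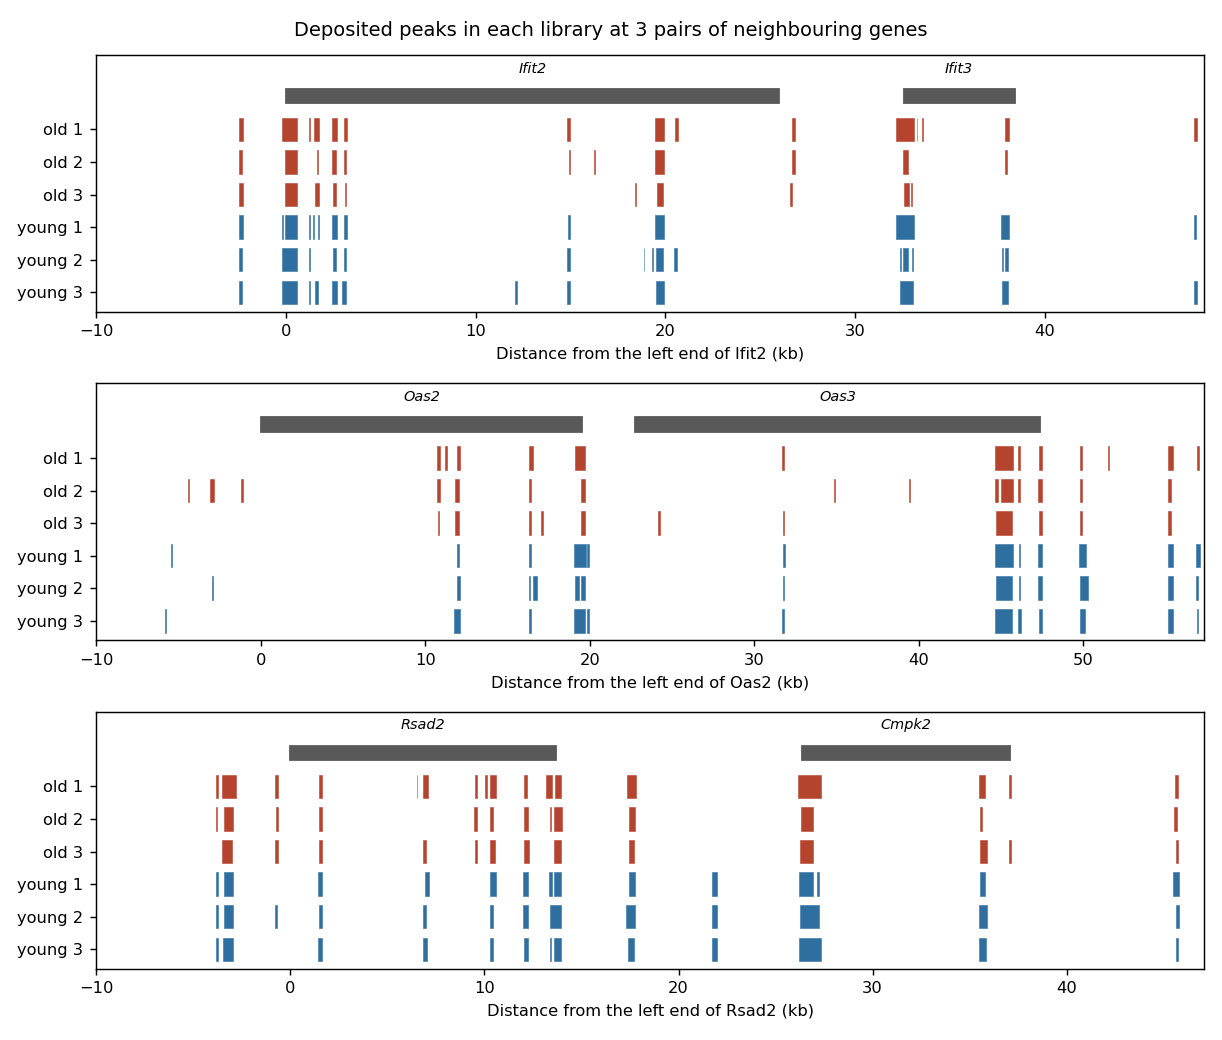
Deposited peaks (bars) in each library along 3 pairs of neighbouring genes, as distance in kb from the left end of the first gene; 3 old rows stand above 3 young rows, and grey bars are gene spans. The large peaks recur in all 6 libraries, and of the peaks between Rsad2 and Cmpk2 the left one is in all 6 rows and the right one in the young rows only.

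Because the lists differ in length, the comparison was repeated on the 50000 peaks with the highest −log10 q of each library. Of 26 members tested at the locus, limma called 0 (0.841% of 14382 genes wider in old and 0.438% narrower). The change was above 0 at 9 of them, against 49.6% of genes, and an unadjusted p under 0.05 was found at 3, against 14.8% of genes. These 3 were Ifi203, Stat2 and Ifih1. Ifi203 covered 1475, 1191 and 1522 bp in old and 941, 1012 and 907 bp in young (change 0.46, SE 0.13, adjusted p = 0.136). None of this lay at the ends of Ifi203, where these peaks covered 0 bp in every library. All of it lay elsewhere in the locus, which also holds sequence of Ifi211. Stat2 covered 1594, 1359 and 1516 bp in old and 1080, 1101 and 1064 bp in young (change 0.40, SE 0.11, adjusted p = 0.138). In both, every old value exceeded every young one, which was not so with the full lists, where the change was -0.10 (SE 0.13) at Ifi203 and -0.01 at Stat2.

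Ifih1 too had opposite signs in the kinds of list, each more than 1 SE from 0. With the strongest peaks it covered 2083, 1849 and 1598 bp in old, all above the 1189, 1144 and 1587 bp in young, a change of 0.44 (SE 0.15, adjusted p = 0.209), against -0.18 with the full lists. On the strongest peaks the old libraries were all higher at 4 of 26 member loci (Stat2, Ifi203, Ifi205 and Ifih1), against 9.89% of genes, and all lower at 1 (Usp18), against 10.5% of genes.

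Of the other genes of the interferon pathway, a list of 95 ligands, receptors, kinases, factors, sensors, inhibitors and further stimulated genes, 86 passed the filter at the locus. Among them 0 were wider in old macrophages and 2 were narrower, against the 0.389% and 0.578% of all genes. Both were GTPases of the guanylate-binding family. Gbp8 fell to 874, 462 and 446 bp in old, against 2201, 1877 and 1604 bp in young, a change of -1.43 (SE 0.19, limma adjusted p = 0.00106). Gbp4 fell to 1825, 1619 and 2096 bp in old, against 3174, 2489 and 2483 bp in young (change -0.51, SE 0.12, adjusted p = 0.0448). The groups did not overlap in either.

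The call for Gbp8 was lost with peaks of −log10 q of at least 2 (change -1.68, adjusted p = 0.0712) and without the filter on low values (-1.43, adjusted p = 0.276). No peak of the Gbp8 locus was among the 50000 strongest of any library. The call for Gbp4 was lost when any one library was left out, at changes between -0.60 and -0.40. It was lost also with a flank of 5 kb (-0.68, adjusted p = 0.0819), on equal-length lists (-0.15, adjusted p = 0.686), with a −log10 q of at least 5 (-0.25, adjusted p = 0.715), without scaling (-0.66, adjusted p = 0.217) and without the filter (-0.51, adjusted p = 0.38). The next in order were Iigp1, a GTPase of the vacuole-attacking IRG family, at 1201, 1221 and 769 bp in old and 1807, 1522 and 1757 bp in young (change -0.60, SE 0.15, adjusted p = 0.0702), and Dtx3l, a ubiquitin ligase, at 2650, 2291 and 2613 bp in old and 3224, 3058 and 3141 bp in young (change -0.30, SE 0.09, adjusted p = 0.136). Iigp1 was called with a flank of 5 kb (-0.64, adjusted p = 0.0345) and without old 1 (-0.69, adjusted p = 0.0449). All old libraries were lower at 18 of the 86 loci, against 8.36% of all genes, and higher at 4, against 8.63%. On equal-length lists they were lower at 10 of 75, against 10.5% of all genes, and higher at 5, against 9.89%, with 0 called. An unadjusted p under 0.05 was found at 17 of the 86 loci, against 12.8% of all genes, and at 10 of the 75 on equal-length lists, against 14.8%. Both called genes belong to the further stimulated genes (47 tested); of 6 receptors, 4 kinases and transducers, 6 factors, 14 sensors and adaptors, 5 inhibitors and 4 ligands tested, 0 were called.

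As a check of the cells, all 10 macrophage markers had a peak at a gene end in every library, against 66.0% of all genes. The genes of the surface markers that typed the cells overlapped between the ages: Adgre1 (F4/80) covered 1295, 1412 and 1089 bp at its locus in old and 1246, 955 and 1110 bp in young (change 0.17, SE 0.15, adjusted p = 0.692), and Siglec1 (CD169) 2627, 2524 and 2234 bp in old and 2053, 2731 and 2081 bp in young (change 0.11, SE 0.11, adjusted p = 0.769). All 6 stromal markers also had a gene-end peak in every library, as did 2 of 5 neutrophil, 2 of 4 plasmacytoid dendritic, 3 of 4 B cell, 1 of 4 T and NK cell, 2 of 4 erythroid and 2 of 3 endothelial markers. Mpo, Hba-a1 and Hbb-bs had none in any library. Bst2, itself a member, was among the plasmacytoid dendritic markers with such a peak. Some of the gene-end cover was slight, with 30 and 36 scaled bp at Lepr and Prrx1 in young 2 and 31 bp at the B cell marker Ms4a1 in young 1. The summed gene-end cover of the macrophage markers was 7505 to 7880 bp in old and 7653 to 8316 bp in young, and that of the stromal markers 3891 to 4191 bp in old and 3452 to 4108 bp in young. At the locus limma called 0 of 34 markers, and 5 had an unadjusted p under 0.05, against 12.8% of all genes. All old libraries were lower at 7 of the 34, against 8.36% of all genes, and higher at 1 (the stromal gene Pdgfrb), against 8.63%. The 7 were the macrophage genes Itgam (change -0.13, SE 0.08, adjusted p = 0.549) and Mertk (-0.15, SE 0.07, adjusted p = 0.373), the plasmacytoid dendritic markers Siglech (-0.50, SE 0.19, adjusted p = 0.266) and Tcf4 (-0.17, SE 0.05, adjusted p = 0.141), the B cell marker Ms4a1 (-0.39, SE 0.14, adjusted p = 0.236), and the endothelial markers Cdh5 and Kdr. Whether the makeup of the cultures bears on the values above was not tested.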

How the data were processed

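Omni-ATAC libraries were read as paired ends of 125 bp on 4 lanes (per the labels' protocols). Per the submitters' processing notes, MACS2 2.1.0.20140616, Picard, SAMtools, Bowtie2 2.2.6, cutadapt 1.14, Trim Galore 0.4.4 and mm10 were used, in roles they do not state. Handling of duplicates, of reads with several matches and of transposase offsets is not given in the sources used here. Broad peak lists were deposited by the authors, 1 for each library without pooling. The deposited score of a peak is 10 times its −log10 q cut to a whole number. Its fold enrichment is a ratio from the authors' caller. The deposited −log10 p and −log10 q describe 1 peak of 1 library and served only for ranking or filtering inside its own list; the lowest −log10 q of each list was just over 1. Depth is unknown.

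Gene spans and promoter windows came from RefSeq tables of GRCm38.p6. The fit covered protein-coding genes of chromosomes 1 to 19 and X, and Mx1 and Mx2, which are annotated as transcribed pseudogenes. Both gene ends stood for the start site, and exons and introns were not separated. Promoter windows were not found for Oas2, Zbp1, Ifi204, Usp18, Mx1 and Mx2. Bases under peaks were summed per locus, within 1 kb of both gene ends and elsewhere, and scaled to the mean library sum. Windows with a mean of at least 500 bp (200 bp at gene ends) were fitted on log2(bp + 200) in R 4.3.3 by limma 3.58.1, with robust empirical Bayes, a mean trend and Benjamini-Hochberg adjustment over all genes. Changes on this scale understate those of narrow loci. Members below the filter take values from the fit without it. Peaks that overlap by 1 bp form a region. Other steps used Python 3.11.15, numpy 2.4.6, pandas 2.3.3 and matplotlib 3.10.9.

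The members and the other lists were chosen with earlier results of these data known. Full values are given for the 8 members with the smallest p at the locus, the 4 at gene ends and the 4 elsewhere, the regulators, the widest and narrowest loci, the called pathway genes and the 4 with the smallest locus p, and Adgre1 and Siglec1; further members named for a pattern were picked after their values were seen. Alternatives were lists of the 50000 strongest peaks, peaks over a −log10 q of 2 or of 5, a pseudocount of 50 bp, quantile normalization, dropping the scaling or the filter, the replicate block, a flank of 5 kb, a gene-end window of 2 kb and leaving out each library.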

Additional observations from a re-analysis of the deposited data

How the results depend on the processing

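In every fit listed in the methods the number of members called was 0 in all 3 windows, with a lowest adjusted p of 0.077. Over the members tested in each window there were 1495 changes under alternatives, those chosen after the data were seen included. Of these 1467 kept their call and their direction (counting 223 that crossed 0 with a value within 1 SE of it), 1 gained a call (Mx1, below) and 27 turned. At the locus Oas2 turned to -0.27 (−log10 q of at least 2) and -0.57 (at least 5, with or without the filter), Oasl2 to -0.20 (at least 5, with or without it) and to -0.41 on equal-length lists (also with the replicate block or without the filter), Ifih1 to 0.44 in the same 3 fits, and Trim25 to -0.32 (at least 5, with or without it) and -0.17 (equal-length lists, replicate block). Elsewhere in the locus Ifih1 turned to 0.72 in the 3 equal-length fits, Trim25 to -0.33 in the same 3 and to -0.48 (at least 5, with or without the filter), Oasl2 to -0.31 (at least 5, with or without it), Irf7 to -0.34 (at least 5, with or without the filter) and Oas2 to -0.83 (at least 5, no filter). The cause was not tested.

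Calls over all genes moved more. Wider and narrower loci, 66 and 98 in the report, numbered 3 and 6 at a −log10 q of at least 5, 121 and 63 on equal-length lists, 2 and 13 without scaling, 0 and 4 without the filter, and ran over 15 to 88 and 14 to 252 when 1 library was left out. Gene ends, 0 and 0 in the report, gave 1 and 0 at a −log10 q of at least 2, 35 and 10 on equal-length lists, 1 and 8 without the filter, 2 and 0 with a window of 2 kb, and 0 to 1 and 0 with 1 library left out. Elsewhere, 71 and 103 in the report, the counts were 5 and 9 at a −log10 q of at least 5, 145 and 68 on equal-length lists, 3 and 9 without scaling, 4 and 6 without the filter, and 22 to 93 and 19 to 252 with 1 library left out. Leaving out 1 library left one age with 2. Fits chosen after the data were seen gave 0 and 0 loci on equal-length lists with the replicate block and 21 and 12 elsewhere; 164 and 91 loci, 105 and 76 ends and 206 and 123 elsewhere on equal-length lists without the filter; and 1 and 3 loci, 36 and 175 ends and 1 and 10 elsewhere at a −log10 q of at least 5 without it. In the last of these 1 member, Mx1, was narrower at its ends (-1.61, SE 0.29, limma adjusted p = 3.68e-05), where a cover near 0 enters the fit. Of the 4 member regions with old peaks only, the count was 2 when a peak had to cover 50% of the region and 1 at a −log10 q of at least 2, while the 6 with young peaks only numbered 7 and 9. At the last setting these were 0.389% and 3.50% of 257 regions, against 0.520% and 1.88% over all loci.

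The labels give same-numbered old and young libraries no more than a shared number. Their deviations correlated at 0.14, 0.14 and -0.16 across loci, and those of other old and young pairs between -0.33 and 0.27. Whether libraries shared a batch was not tested. With the replicate block 95 loci were wider and 170 narrower, 0 and 0 at gene ends, and 95 and 146 elsewhere, with 0 members called. Covered length depends on depth, which is unknown.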

Other observations

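The genes that make and receive interferon differed in peak cover at their ends in both ages. Of 10 ligand genes, 7 (Ifna1, Ifna2, Ifna4, Ifna5, Ifnl2, Ifnl3 and Ifnk) had no peak within 1 kb of an end in any library. Ifnb1, the first interferon gene that many cells induce, had a small peak in all 6, over 131, 167 and 156 scaled bp in old libraries and 171, 181 and 135 bp in young ones. All 6 receptor genes had gene-end peaks in every library, against 66.0% of all genes. So did the 4 kinase and transducer genes, the 6 further transcription factor genes and the 5 inhibitor genes. The 14 sensor and adaptor genes and 43 of 50 further stimulated genes had them too. Ifnar2 had the widest cover of the receptors, at 1992, 2321 and 2198 bp in old and 1978, 2169 and 1940 bp in young. The old and young values overlapped at Ifnb1 and Ifnar2.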
